A study of Danio rerio with 20 samples.

Results

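The regions described here were sites where Raraa, a zebrafish retinoic acid receptor, was called in untreated embryos and where a Hoxb1b peak was called in embryos given all-trans retinoic acid (atRA) but not in untreated ones. They were chosen from the 71640 Hoxb1b peaks of atRA replicate 2 on chromosomes 1 to 25. A region was kept when it overlapped, by at least 1 bp, a Hoxb1b peak of atRA replicate 1 and a Raraa peak in both control libraries at 80% epiboly, and no peak of either Hoxb1b control library. The rule left 1551 regions, 2.16% of the 71640 peaks. Of the 21329 regions that met the Hoxb1b conditions, another 7968 had a Raraa peak in 1 of the 2 control libraries and 11810 had one in neither. These 11810 other Hoxb1b gains served as comparison regions.

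Retinoic acid receptors bind DNA as heterodimers with retinoid X receptors. They occupy response elements with corepressors when no ligand is bound and with coactivators when ligand is bound. Hoxb1b is an anterior Hox protein of the early hindbrain territory, and its gene responds to retinoic acid. Meis2b belongs to the TALE homeodomain proteins, which bind DNA with Hox and Pbx partners, and Sox3 is an HMG-box factor of early neural progenitors. Retinoic acid patterns the hindbrain and anterior spinal cord of the vertebrate embryo, and excess ligand gives it more posterior character.

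Binding was measured by ChIP-seq with tagging of the immunoprecipitated chromatin by the Tn5 transposase. All embryos were wild-type and were taken whole, so cell types are pooled and a site bound in few cells cannot be told apart from one bound weakly in many. At 80% epiboly, late in gastrulation, untreated controls and embryos given 0.1 µM atRA from 30% epiboly were profiled with antibodies against Raraa, Hoxb1b, Meis2b and Sox3. The controls were collected at the same stage as the treated embryos, so no library shows a site before treatment, and "after atRA" means in treated embryos. Untreated embryos of 2 later stages, 5 somites and 24 hpf (hours after fertilisation), were profiled with the Raraa antibody as well. Each of the 10 groups had 2 libraries, called replicates in the labels. No label says that replicates came from separate clutches, so the p-values rest on these libraries alone, whose spread may be technical. The labels have each chromatin divided over 6 antibody aliquots, and whether antibodies shared a chromatin is not given in the sources used here. The stage was taken from the sample titles, because the treatment text gives 80% epiboly for every sample.

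The deposited data are peak lists, 1 per library, with coordinates in GRCz10. Raraa control replicate 1 was the shortest, with 24549 peaks, and Raraa atRA replicate 1 the longest, with 260179. The lists hold no read numbers. The number of fragments covering each summit (the summit pileup) and the background were recovered from the deposited fold enrichment and p, and the background was lowest in Meis2b control replicate 1, at 0.199 fragments per base. It was highest in Raraa atRA replicate 1, at 2.17. For Sox3 in controls, the number 2 stands in the peak names of replicate 1 as well as of replicate 2.

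The values behind the choice of regions describe them and are not tested. In the Hoxb1b lists after atRA the members' summit pileups ranged from 6 to 116 fragments in replicate 1 and from 4 to 93 in replicate 2, with medians of 19 and 14. The fold enrichments, the authors' own, had medians of 6.33 and 6.20. When peaks were ranked by the deposited p within a list, from 0 for the weakest to 100 for the strongest, the median members stood at 87.7 and 83.1. Members were thus stronger Hoxb1b peaks than the comparison regions, whose medians were 69.5 and 58.7. They were also wider, with a median of 341 bp in replicate 2 against 228 bp. In the Raraa controls the median summit of the members was covered by 8 fragments in replicate 1 and 13 in replicate 2, at median ranks of 67.4 and 86.0. Hoxb1b and Raraa ranks were weakly related across the members (Spearman's rho 0.178 to 0.241 over the 4 library pairs), while rho was 0.688 between the Hoxb1b replicates and 0.442 between the Raraa controls. These correlations are across 1551 regions of shared libraries and carry no test.

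Absence of a Hoxb1b peak in controls has to be read against their lower background, which was 0.235 and 0.286 fragments per base against 0.910 and 0.533 after atRA. When the members' pileups in atRA replicate 2 were scaled by the ratio of the backgrounds, the median member came to 6.18 fragments in control replicate 1 and 7.502 in control replicate 2. The lowest summit called in either control list held 3 fragments, and the median summit called held 6. The scaled pileup reached that median in both controls for 813 of the 1543 members with a single recovered pileup (52.7%). For the remaining members a control peak of equal relative height was under the median height called in at least 1 of the controls. A Hoxb1b control peak lay within 500 bp of 226 members (14.6%) without overlapping them. The same count was not made for other Hoxb1b peaks, so whether this share is high or low is not known.

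The threshold that most limited membership was a peak in Raraa control replicate 1, the shortest list. The 3 members just inside it lay at chr4:16467298-16467829, chr8:20590229-20590434 and chr5:57103009-57103622. Each had a summit of 4 fragments in that library, with fold enrichments of 3.03, 3.11 and 3.17. Just outside were 7224 regions that met every other condition. Their median distance to the nearest peak of that list was 13159.5 bp, and 483 of them (6.69%) had one within 500 bp.

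Regions are named by rule. The first 6 had the best mean rank in the 4 lists the rule requires. Region 1, at chr24:34380243-34380757, led this order and was also the strongest of the members called in all 14 libraries outside the rule. Its Hoxb1b summits were covered by 85 and 62 fragments after atRA, in replicates 1 and 2, and neither Hoxb1b control list held a peak there. Raraa summits were covered by 44 and 66 fragments in the controls, 126 and 95 after atRA, 41 and 24 at 5 somites, and 21 and 18 at 24 hpf. Meis2b was called at 13 and 9 fragments in controls and at 76 and 67 after atRA. Sox3 was covered by 68 and 130 fragments in controls and by 123 and 114 after atRA. For Meis2b both atRA values stood above both control values, in fragments and in fold enrichment. Fold adds 1 fragment to both summit and background, which lowers it more where background is low, so it also depends on depth. Meis2b backgrounds were 0.199 and 0.267 fragments per base in controls and 0.494 and 0.256 after atRA. No change of Meis2b at region 1 is therefore read from fold. The Sox3 pileups overlapped between treatments, but pileups are not corrected for depth. In fold enrichment Sox3 was lower after atRA, at 9.13 and 9.06 against 11.07 and 11.47 in controls.

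Regions 2 to 6 shared the strong Raraa peak but differed in Meis2b and Sox3. Region 3, at chr13:3048103-3048654, had Raraa pileups of 43 and 69 in controls, 127 and 73 after atRA, 108 and 96 at 5 somites and 76 and 73 at 24 hpf. Its Raraa fold enrichments were 14.7 and 13.2 in controls and 9.58 and 10.8 after atRA, lower in treated embryos where the pileups were higher. Its Hoxb1b pileups after atRA were 56 and 51. Region 5, at chr12:34487474-34488072, had Raraa pileups of 35 and 54 in controls, 154 and 100 after atRA, 113 and 106 at 5 somites and 55 and 72 at 24 hpf. At region 5 no Meis2b peak was called in controls, and summits of 49 and 29 fragments were called after atRA. Sox3 there was covered by 7 and 22 fragments in controls and by 82 and 79 after atRA, so the treatments did not overlap.

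Region 4, at chr4:1706371-1706661, had the least Sox3 of the 6, with no peak and 9 fragments in controls and with 28 and 14 after atRA. Its Meis2b pileups were 6 and no peak in controls and 35 and 28 after atRA. Region 6, at chr13:19558832-19559283, had Raraa pileups of 20 and 35 in controls and 102 and 48 after atRA, 18 and 20 at 5 somites and 9 and 14 at 24 hpf. At region 2, chr12:8941176-8941727, the Meis2b lists held no peak and a 6-fragment peak in controls and peaks of 36 and 26 fragments after atRA. Pileups are not corrected for depth, and the background of Raraa atRA replicate 1 was the highest of all libraries. In fold enrichment, both Raraa atRA values were below both controls at regions 2 and 3 and overlapped with them at regions 1, 4 and 5. At region 6 they were above, with 17.1 and 17.4 after atRA against 11.3 and 13.4 in controls. No common change of Raraa with treatment is therefore read from the pileups of regions 1 to 6. No rise at region 6 is read from fold either, because the fragment it adds to summit and background lowers it more at low background.

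The other members that were strongest over all 14 libraries outside the rule were regions 7 to 9. Their pileups are not corrected for depth, so they do not rank the antibodies against each other. Region 7, at chr16:46277115-46277897, had Sox3 pileups of 82 and 141 in controls and 143 and 144 after atRA, but Raraa pileups of 8 and 12 in controls and 76 and 25 after atRA. Its Hoxb1b summits after atRA were covered by 74 and 57 fragments, and Meis2b was at 15 and 7 in controls and 80 and 60 after atRA. Region 8, at chr7:53129045-53129547, and region 9, at chr2:37844093-37844623, had Sox3 control pileups of 42 and 70 and of 30 and 63. Both had Meis2b called in the controls, at 7 and 12 and at 9 and 8 fragments, and at 25 and 16 and at 35 and 24 after atRA.

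Regions 10 to 13 were the strongest members with no Meis2b and no Sox3 peak in any library. Region 10, at chr22:516404-516708, overlapped broad Raraa peaks with pileups of 24 and 44 in controls, 92 and 38 after atRA, 39 and 23 at 5 somites and 25 and 22 at 24 hpf. The summits of all 8 of these peaks lay outside the 305 bp region, at -275 to -835 bp from its Hoxb1b summit, so these pileups are not those of the region itself. The Hoxb1b summit of replicate 1 also lay outside it, at -202 bp. The Hoxb1b pileups of 19 and 14 came with fold enrichments of 3.76 and 3.53, below the members' medians. Region 11, at chr10:34050609-34050787, had Hoxb1b pileups of 10 and 6, and its Raraa summit of control replicate 1 lay outside it, at 209 bp. Region 12, at chr20:55203998-55204395, had a receptor call in atRA replicate 1 but none at the later stages, and region 13, at chr6:53549667-53549849, had no Raraa call after atRA and 1 later, in 24 hpf replicate 2. No gene is assigned to any region, because no annotation of GRCz10 was used here.

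**Figure D1:**
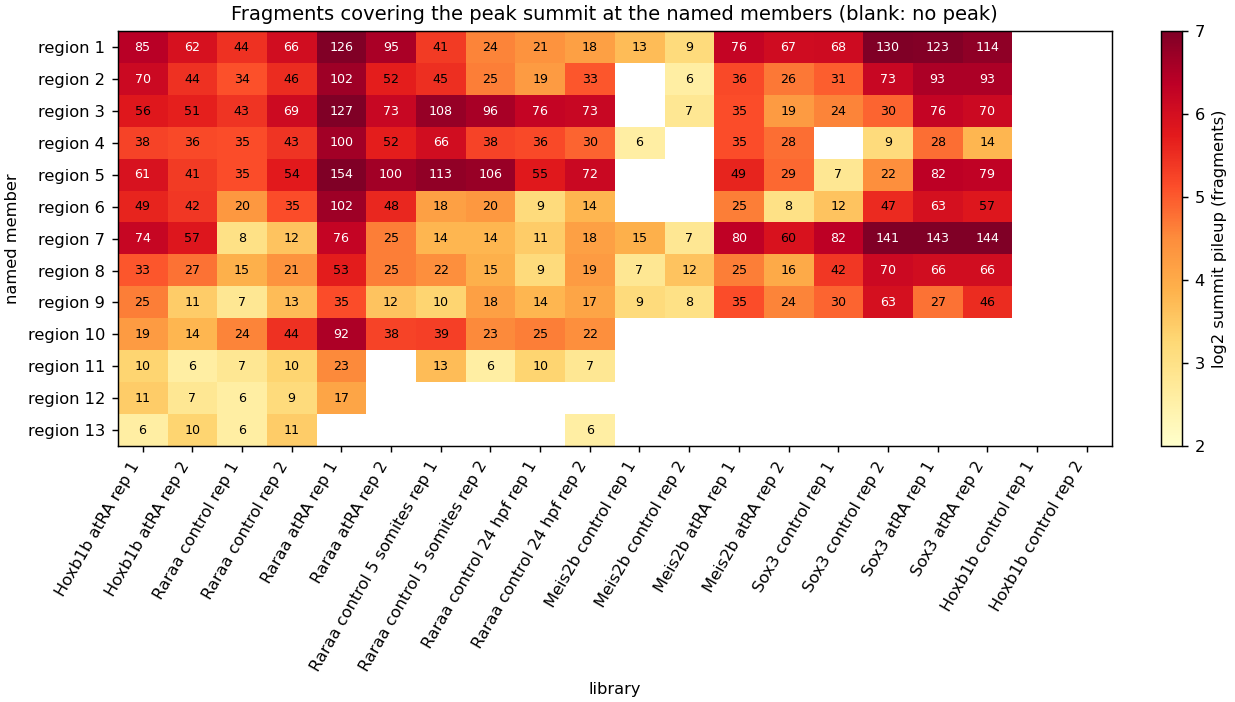
Fragments covering the peak summit (printed in each cell, colour on a log2 scale) at the 13 named regions in 18 libraries with a peak and in the 2 Hoxb1b control libraries, which are blank by the rule. Regions 1 to 6 are the strongest by the 4 required lists, regions 7 to 9 join region 1 as the strongest over 14 libraries, and regions 10 to 13 have no Meis2b or Sox3 peak. Blank cells have no called peak, and a value belongs to the overlapping peak, whose summit lies outside the region for all Raraa values of region 10.

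After atRA the receptor was called at most of the members. A Raraa peak was called at 1480 members (95.4%) in atRA replicate 1 and at 1079 (69.6%) in replicate 2. Over all 71640 Hoxb1b peaks the shares were 60.5% and 22.9%, and over the comparison regions 65.4% and 22.5%. The replicates differed widely, and so did their background, at 2.17 and 0.606 fragments per base. The ranks stood high in both: the median member with a peak was at 97.6 in replicate 1 and 93.7 in replicate 2, against 77.9 and 62.8 at the comparison regions. Both atRA libraries had a Raraa peak at 1065 members (68.7%), against 19.2% of the comparison regions and 20.2% of all Hoxb1b peaks. Neither had one at 57 members (3.68%), against 31.3% of the comparison regions and 36.8% of all Hoxb1b peaks. Since every member had Raraa in both controls by the rule, no change in the receptor with treatment can be read from these shares.

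At 5 somites Raraa was called at 1052 members (67.8%) in replicate 1 and 1022 (65.9%) in replicate 2. The shares over all Hoxb1b peaks were 28.6% and 29.2%, and over the comparison regions 21.5% and 21.1%. At 24 hpf the members' shares were 58.6% (909 regions) and 70.5% (1094 regions), against 24.4% and 32.5% of all Hoxb1b peaks. The mean share of members was 66.9% ± 1.37 at 5 somites and 64.6% ± 8.43 at 24 hpf (SD, n = 2 each). The difference of -2.29 points lay within the spread of the 24 hpf libraries, and without 24 hpf replicate 1 it was 3.68. Peaks that were called stood high at both stages, with median ranks of 94.1 and 92.8 at 5 somites and 90.1 and 90.2 at 24 hpf. At the comparison regions these medians lay between 58.6 and 60.6.

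Receptor calls often recurred at all stages. All 6 Raraa libraries outside the rule had a peak at 529 members (34.1%), against 1.40% of the comparison regions and 5.08% of all Hoxb1b peaks. None of the 6 had one at 21 members (1.35%), against 19.4% and 23%. Both 5-somite and both 24 hpf libraries held a peak at 605 members (39.0%), where the share over all Hoxb1b peaks was 7.2%. None of the 4 later libraries held one at 151 members (9.74%), against 41.6% of all Hoxb1b peaks. Calls that separated the stages were few. A peak in both 5-somite libraries and in neither 24 hpf library was found at 65 members (4.19%, with 2.86% of all Hoxb1b peaks), and the opposite at 34 (2.19%, with 2.52%). At the comparison regions these shares were 2.51% and 2.99%. At the regions with Raraa in 1 control they were 3.78% and 3.98%. All of these shares are small, and they vary with how often Raraa is called at a set at all. Neither is read as a trait of the members.

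The share of members with a Raraa peak exceeded that of the comparison regions in 6 of 6 libraries, by 41.7 points on average (SD 6.404, range 30.1 to 47.0). With all sign flips over the 6 libraries the exact permutation p was 0.0312, two-sided, the smallest that 64 arrangements can give, and 0.0625 after Benjamini-Hochberg adjustment over 4 tests. The members had been selected on Raraa peaks from the same antibody at 80% epiboly, and the comparison regions on their absence. An excess was therefore built into the choice of the sets, and no conclusion is drawn from this p. When Raraa control replicate 1 was dropped from the rule, the mean excess was 20.9 points, and without control replicate 2 it was 26.4.

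**Figure D2:**
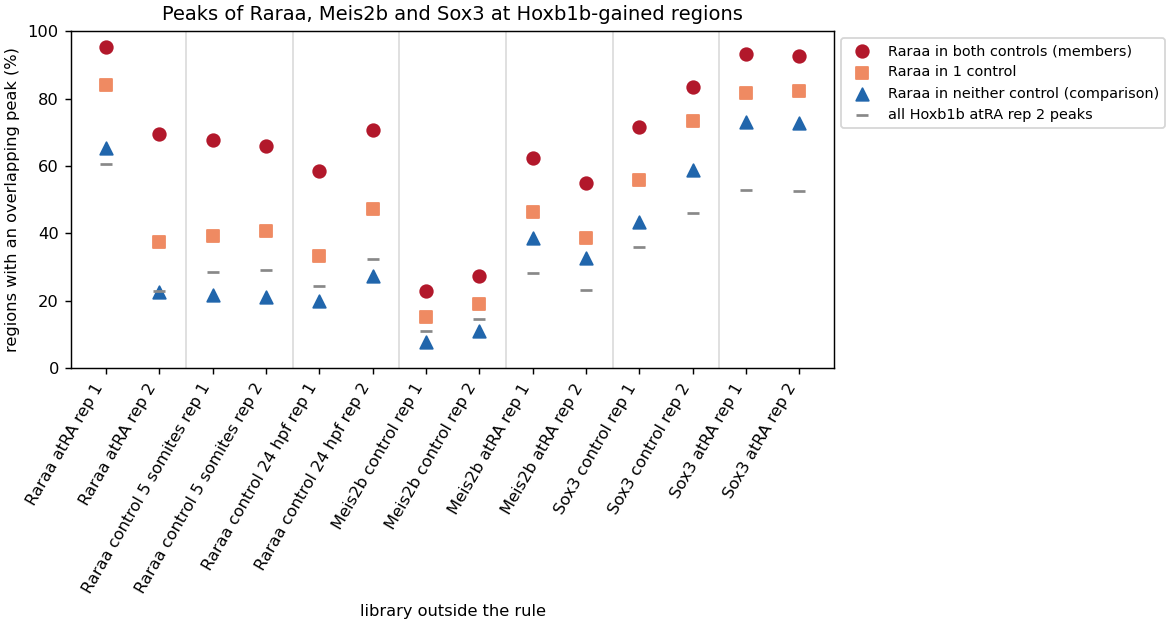
Share of regions (%) with an overlapping peak in each of the 14 libraries outside the rule, for members (n = 1551), Hoxb1b gains with Raraa in 1 control (n = 7968), comparison regions with Raraa in neither (n = 11810) and all Hoxb1b atRA replicate 2 peaks (n = 71640). The members are the highest of the 4 sets in every library, and regions with 1 Raraa control lie between members and comparison regions.

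Regions with Raraa in 1 of the 2 controls lay between the members and the comparison regions in each of the 14 libraries. In Raraa atRA replicate 2, for example, the shares were 69.6%, 37.6% and 22.5%. Of the 7968 regions with 1 control, 7224 were called in Raraa control replicate 2 only, the longer control list. Their median rank in that list was 62.5, against 86.0 for the members. In Hoxb1b atRA replicate 2 the median rank of the 7968 was 68.7, against 83.1 for the members. The part of list length and peak strength in this order was not tested.

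Meis2b, the homeodomain partner, was called at a minority of the members in untreated embryos and at most of them in treated ones. In controls the shares were 22.8% (353 members) and 27.3% (423), over backgrounds of 11.1% and 14.7% of all Hoxb1b peaks. After atRA they were 62.5% (969) and 54.8% (850), over 28.3% and 23%. Both atRA libraries stood above both controls. Meis2b control replicate 2 and atRA replicate 2 had nearly equal backgrounds, 0.267 and 0.256 fragments per base, while replicate 1 of each had 0.199 and 0.494. The mean share was 25.02% ± 3.19 in controls and 58.6% ± 5.43 after atRA (SD, n = 2 each), a difference of 33.6 points that was 26.4 at the comparison regions. Over all Hoxb1b peaks the mean shares were 12.9% and 25.7%.

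The Meis2b peaks were of moderate height. Median summit pileups at members with a peak were 7 and 6 fragments in controls and 13 and 11 after atRA, and median ranks were 68.4 and 61.6 in controls and 82.6 and 81.5 after atRA. Meis2b was called in both atRA libraries and in neither control at 340 members (21.9%), against 17.1% of the comparison regions and 8.75% of all Hoxb1b peaks. All 4 Meis2b libraries held a peak at 117 members (7.54%, with 2.99% of all Hoxb1b peaks). None did at another 340 (21.9%, with 56.1%). Both controls but neither atRA library held one at 18 members (1.16%), against 0.330% of the comparison regions and 0.768% of all Hoxb1b peaks.

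Sox3, the neural progenitor factor, was called at most members in controls. The shares were 71.6% (1111 members) and 83.4% (1293) in controls and 93.1% (1444) and 92.6% (1437) after atRA. Over all Hoxb1b peaks they were 35.8% and 45.9% in controls and 52.9% and 52.5% after atRA. Both atRA shares were above both control shares. The mean was 77.5% ± 8.30 in controls and 92.9% ± 0.319 after atRA (SD, n = 2 each), a difference of 15.4 points that was 9.51 without control replicate 1. That library had a background of 0.425 fragments per base, where the other 3 Sox3 libraries had 0.969 to 1.12. At the comparison regions the means were 51.0% ± 10.9 and 72.9% ± 0.281 (SD, n = 2 each).

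Both Sox3 controls had a peak at 1039 members (67.0%), against 36.4% of the comparison regions and 28.8% of all Hoxb1b peaks. All 4 Sox3 libraries did at 1014 members (65.4%, with 26% of all Hoxb1b peaks). Sox3 called only after atRA, in both libraries, was found at 110 members (7.09%). The pattern held 6.04% of all Hoxb1b peaks and 11.4% of the comparison regions. No Sox3 library had a peak at 24 members (1.55%, with 30.4% of all Hoxb1b peaks), against 13.1% of the comparison regions. Sox3 in both controls with neither atRA library was found at 5 members (0.322%), against 0.542% of the comparison regions and 0.811% of all Hoxb1b peaks.

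The difference between treatments over both antibodies averaged 24.5 points at the members, with atRA higher in each. Its exact permutation p, two-sided, with labels permuted within each antibody, was 0.0556, the smallest that the 36 arrangements can give, so the design cannot pass 0.05 (adjusted 0.0741). These regions had been selected on Hoxb1b peaks present after atRA and absent in controls, and the part of that selection in the 24.5 points was not tested. The difference of 24.5 points was compared with that at the comparison regions, which were chosen by the same Hoxb1b lists. It was larger by 0.339 points, with an exact permutation p of 0.889, two-sided (adjusted 0.889). The sign of this contrast depended on the scale and the antibody. In points, members exceeded comparison regions by 7.26 for Meis2b and stood at -6.59 for Sox3. In log2 odds the values were -0.35 for Meis2b and 0.50 for Sox3, and with the 20000 strongest peaks of each list they were 8.20 and 3.54 points. Limited to Hoxb1b peaks with q of at most 1e-05, the mean contrast was -7.54 points (exact permutation p = 0.0556).

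These values do not show that the sets changed alike.

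The share of members with a Meis2b or Sox3 peak exceeded that of the comparison regions in 8 of 8 libraries, by 21.3 points on average (SD 4.43, range 14.9 to 28.4). The exact permutation p over all 256 sign flips was 0.00781, two-sided, the smallest they can give, and 0.0312 after adjustment over 4 tests. The flips took the 8 libraries as independent units. All 8 were scored at the same regions, and whether antibodies shared a chromatin is not given. With the excess positive in all 8, this p follows from the number of libraries alone. The excess was 10.8 points without Raraa control replicate 1 in the rule and 14.04 without control replicate 2. With any 1 of the 8 libraries left out the smallest p from 128 sign flips is 0.0156, which adjusts to 0.0625 and ends the call, at excesses of 20.2 to 22.2 points.

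Members exceeded the comparison regions in each of the 14 libraries when lists were limited to equal length. Among the 20000 strongest peaks of each list, Raraa was found at 68.5% and 56.9% of the members after atRA, against 16.2% and 10.9% of the comparison regions. At 5 somites the members' shares were 44.4% and 41.6% and at 24 hpf 33.9% and 42.8%, where those of the comparison regions ran from 4.75% to 7.32%. Over all Hoxb1b peaks the Raraa shares were 18.1% and 13.1% after atRA. They were 10.3% and 10.5% at 5 somites and 7.98% and 11.7% at 24 hpf, above the comparison regions, which were chosen for lacking Raraa in controls. Meis2b was found at 17.3% and 13.99% of the members in controls, against 6.03% and 5.30% of the comparison regions, and at 42.3% and 41.7% after atRA, against 24.7% and 22.9%. Sox3 was found at 42.0% and 56.9% of the members in controls, against 19.6% and 26.3%, and at 63.1% in both atRA libraries, against 33.2% and 32.8%. Over all Hoxb1b peaks Meis2b was at 8.59% and 7.57% in controls and at 16.7% and 15.5% after atRA. Sox3 was at 16.5% and 20.8% of them in controls and at 22.3% and 22.1% after atRA.

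Peak calls of the factors, from separate libraries of pooled cells, overlapped at many of the members. All 6 atRA libraries of Raraa, Meis2b and Sox3 held a peak at 577 members (37.2%), against 6.18% of the comparison regions and 8.18% of all Hoxb1b peaks. All 14 libraries outside the rule did at 40 members (2.58%, with 0.98% of all Hoxb1b peaks). No Meis2b or Sox3 library held a peak at 15 members (0.967%), against 9.21% of the comparison regions and 24.9% of all Hoxb1b peaks. Meis2b called in both atRA libraries and neither control fell on 257 of the 1039 members with Sox3 in both controls (24.7%) and on 27 of the 186 with Sox3 in neither (14.5%). At the comparison regions these shares were 21.4% and 16.5%, and over all Hoxb1b peaks 17.7% and 4.05%. The combined patterns held 5.1% and 1.91% of all Hoxb1b peaks. None of these differences was tested.

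The shares of Meis2b and Sox3 differed with the number of Raraa libraries, though not in step with it. At the 529 members with all 6 Raraa libraries, Meis2b was called after atRA at 75.4% and 66.5% and Sox3 at 97.9% in both atRA libraries. At the 82 members with 1 Raraa library, the shares were 28.0% and 29.3% for Meis2b and 74.4% and 73.2% for Sox3. In controls the order did not hold throughout: Sox3 in control replicate 2 stood at 70.7% with 1 Raraa library, 89.2% with 5 and 82.8% with 6, and in control replicate 1 at 52.4%, 78.1% and 75.2%. Meis2b in controls stood at 17.1% and 15.9% with 1 Raraa library and at 26.8% and 31.4% with 6. Meis2b in atRA replicate 2 was at 50.4% with 3 Raraa libraries and 43.0% with 4. The median Hoxb1b rank differed as well, at 90.3 with 6 Raraa libraries and 63.8 with 1, and its part in these shares was not tested. The 21 members with no Raraa peak outside the rule did not continue the order, with Meis2b after atRA at 52.4% and 42.9% and a median Hoxb1b rank of 36.8.

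**Figure D3:**
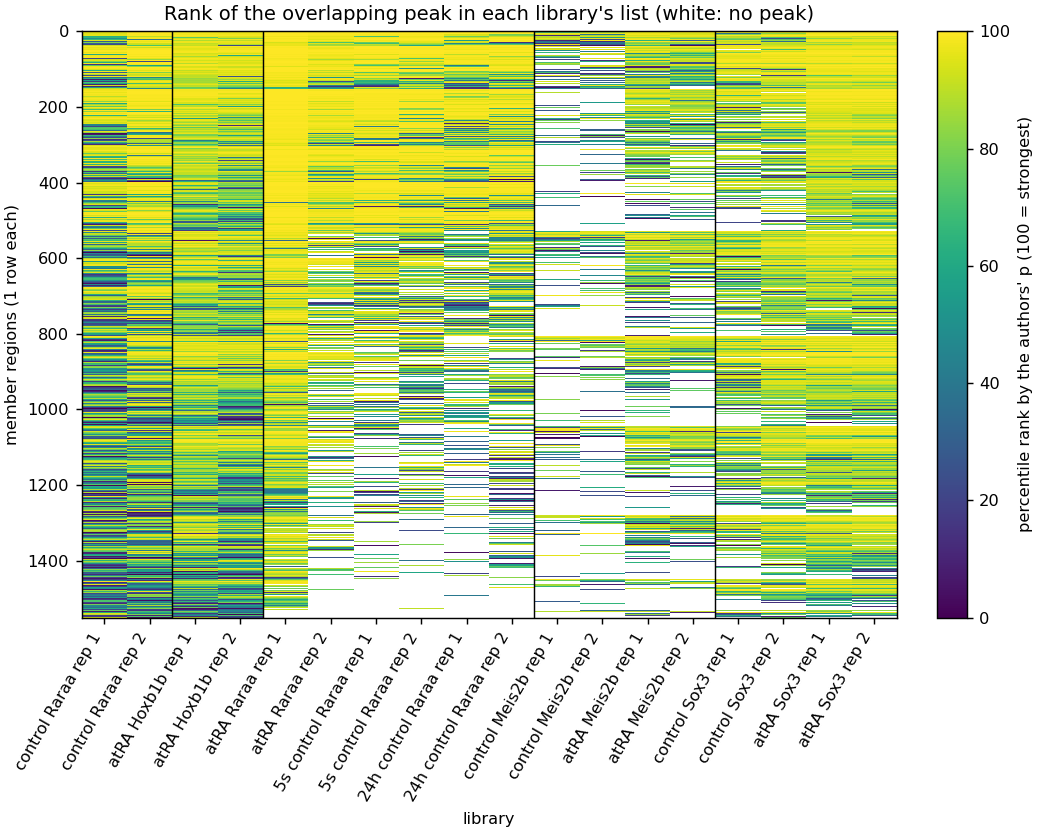
Percentile rank of the overlapping peak within its own list (colour, 100 = strongest; white, no peak) for all 1551 members (rows) in the 4 libraries the rule requires and the 14 outside it. Rows are ordered by the number of Raraa libraries outside the rule, then of Meis2b and Sox3 libraries, then by mean rank. The upper 529 rows have Raraa in all 6 libraries, and the Meis2b control columns are mostly white.

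Because members were stronger Hoxb1b peaks, the sets were also compared within quartiles of the Hoxb1b atRA replicate 2 list, a comparison added after the values had been seen. The strongest quartile held 966 of the 1551 members and 3729 of the 11810 comparison regions. In it Raraa after atRA was found at 89.6% of members and 54.3% of comparison regions, and at 5 somites at 72.5% and 25.5%. In the weakest quartile, with 132 members, these shares were 67.4% and 35.8%, and 54.9% and 17.1%. Meis2b after atRA differed most between the end quartiles of the members, from 31.8% to 71.5% of the members and from 20.9% to 57.3% of the comparison regions. Sox3 in controls went from 59.5% to 84.0% of the members and from 41.0% to 63.1% of the comparison regions. The members' mean share was above that of the comparison regions in every quartile and group. With quartiles weighted equally, the excess was 36.02 points for Raraa and 14.8 for Meis2b and Sox3. A Raraa excess was built into the choice of the sets, so no conclusion is drawn from it here.

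**Figure D4:**
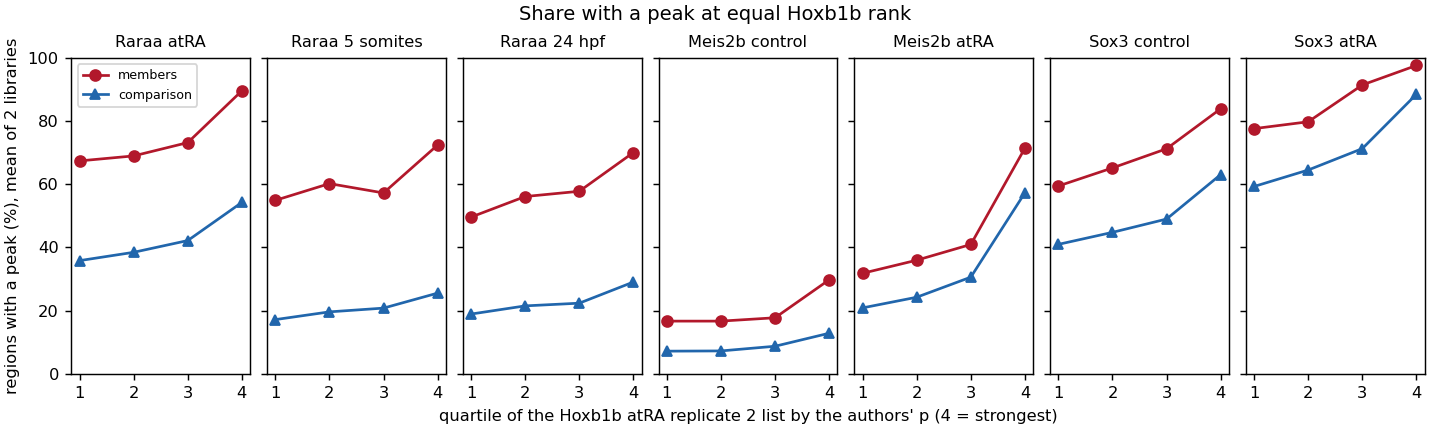
Mean share of regions (%) with a peak over the 2 libraries of each group, by quartile of the Hoxb1b atRA replicate 2 list (4 = strongest by the deposited p), for members (red circles) and comparison regions (blue triangles). Members lie above comparison regions at each point, and Meis2b after atRA climbs from 31.8% to 71.5% of the members.

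Where peaks overlapped a member, between 82.0% and 90.3% of those outside the rule had their summit inside it. At the comparison regions, which were narrower, these shares ran from 70.1% to 81.4%. Only overlapping peaks were measured, which in itself favours short distances between summits. For the 2 Raraa controls of the rule the share with a summit inside the member was 84.0% and 85.0%. Their overlaps with a member ran down to 1 bp, and they covered at least 50% of it at 48.7% and 72.8% of the members. Pileups and ranks are those of the overlapping peak wherever its summit lies. The distance from the Hoxb1b summit of atRA replicate 2 had a median of 59 bp for Hoxb1b in the other replicate, which sets the precision of a summit position. It was 75 and 68 bp for Raraa in controls, 61 and 64 bp for Raraa after atRA, and 69 to 73 bp at the later stages. For Meis2b it was 66 and 77 bp in controls and 65 and 67 bp after atRA, and for Sox3 59 and 61 bp after atRA and 70 and 73 bp in controls. Between 35.97% and 44.7% of the summits outside the rule lay within 50 bp, against 44.9% for the other Hoxb1b replicate. The comparison regions had medians of 64 to 78 bp in those libraries, close to those of the members. The members' peaks were wider, so overlap was also scored in a fixed window, an alternative added after the values had been seen. In a window of 100 bp either side of the Hoxb1b summit, in place of the called peak, the excess over the comparison regions was 40.9 points for Raraa and 19.96 for Meis2b and Sox3. The Raraa excess was again built into the choice of the sets.

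**Figure D5:**
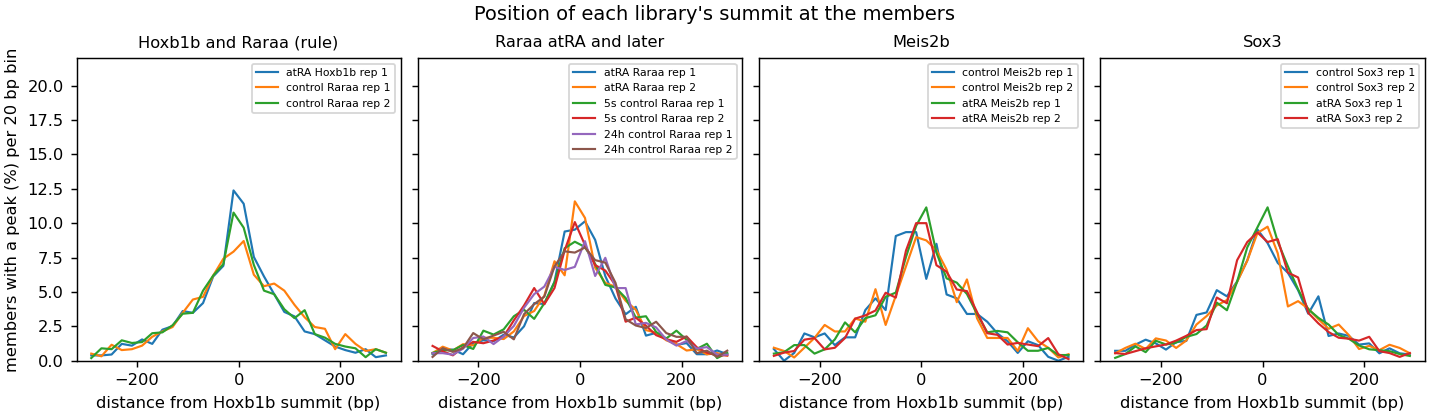
Position of each library's peak summit relative to the Hoxb1b summit of atRA replicate 2 at the members (x axis, bp; y axis, percent of members with a peak in that library per 20 bp bin). All libraries peak near 0. The share of summits within 50 bp was 44.9% for the other Hoxb1b replicate and 35.97% to 44.7% for the libraries outside the rule.

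The members were spread over the genome. Each of the 25 chromosomes held between 46 (chromosome 22) and 95 (chromosome 5), which is 1.75% (chromosome 14) to 2.74% (chromosome 6) of its Hoxb1b peaks. Another member lay within 10 kb of 147 members (9.48%), and the median distance to the nearest was 175133 bp. Within the comparison regions the values were 27.8% and 26563 bp. Within the regions with Raraa in 1 control they were 21.0% and 37161 bp. Both sets are larger than the members, and such distances depend on the size of a set. Of the runs joined at 10 kb, 67 were pairs, 3 held 3 members and 1 held 4. The run of 4 lay at chr21:235456-240407 and spanned 4952 bp. In it 3 members had Raraa in both atRA libraries, 1 had Sox3 in both controls and none had Meis2b in both atRA libraries with neither control. The runs of 3 lay at chr4:5716397-5726019, chr9:31430444-31439945 and chr12:8861206-8872087.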

How the data were processed

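ChIP-seq peak lists of 20 libraries were used as deposited. Per the submitters' processing notes, Bowtie, SAMtools and MACS2 were used with GRCz10 (danRer10); versions, duplicate handling and an input control are not given in the sources used here. Each entry holds the authors' fold enrichment over local background, and −log10 p and −log10 q per peak. Fold was taken as a ratio with the same constant added to summit pileup and background, which lowers it more where background is low. The deposited q-values lie under 0.05, and peak names show that the authors called each library separately. Summit pileup and background were recovered together from fold and p (Poisson, tolerance 0.002 in −log10 p). The background of a library is the 0.001 quantile. Peaks with 2 possible pileups (0.0351% to 3.16% of a list) were given none.

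Overlap meant at least 1 bp on chromosomes 1 to 25. Shares were compared over libraries with exact permutation tests, two-sided, adjusted over 4 tests by the Benjamini-Hochberg method. Shares carry counting error only; the widest 95% Wilson interval of a member share was ±2.47 points. Read totals are unknown. Named regions were the 6 members with the best mean rank in the required lists, the 4 best over the 14 other libraries among members called in all, and the 4 best with no Meis2b or Sox3 peak. Members, lists and tests were chosen with earlier results of these data known. No genome or annotation of GRCz10 was used, so motifs and nearest genes were not analysed here. Python 3.11.15 with numpy 2.4.6, pandas 2.3.3, scipy 1.17.1 and matplotlib 3.10.9 was used, and the procedures were tested on simulated data. Alternatives covered thresholds, list length, overlap, anchor library and left-out libraries.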

Additional observations from a re-analysis of the deposited data

How the results depend on the processing

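Values are percentage points unless a count is named. With the 20000 strongest peaks of each scored library the Meis2b difference between treatments was 26.3, and with Hoxb1b q of at most 1e-05 it was 41.4. When required overlaps had to cover at least 50% of the anchor peak, the Sox3 difference was 21.6 and 610 members were left of 1551. Leaving out libraries gave 26.3 to 37.5 for Meis2b, 9.51 to 21.2 for Sox3 and 21.5 to 27.4 for their mean (exact permutation p 0.0556 to 0.111). The number of members ranged from 1922 to 8775: it was 8775 without Raraa control replicate 1, 2339 without Hoxb1b control replicate 1, 2295 without Raraa control replicate 2 and 2269 without Hoxb1b control replicate 2.

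The change at members minus that at comparison regions, 0.339 in the report, changed sign between settings. It was -7.54 with Hoxb1b q of at most 1e-05, -2.11 within Hoxb1b quartiles (chosen after seeing the data; exact permutation p = 0.278), and -2.75 to 2.19 with a library left out, 6 of 12 values being negative. Over the other settings it ran up to 5.87. The difference between 24 hpf and 5 somites ran from -8.25 to 3.68 with a library left out, and from -6.93 to -0.906 otherwise. The Meis2b and Sox3 excess over the comparison regions was 10.8 to 23.5 with a library left out, and 14.7 to 21.9 under the other settings, all of which kept the call. The Raraa excess was 20.9 to 44.0 with a library left out and 36.02 to 46.9 otherwise, and no setting took its adjusted p under 0.05.

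Replicate numbers only name the libraries. Same-numbered Meis2b libraries had a correlation of deviations of -0.00844 over 71640 regions, and Sox3 libraries 0.00497. With the numbers as a replicate block the mean difference stayed 24.5 (exact permutation p = 0.125, the smallest of 16 arrangements) and the contrast with comparison regions 0.339 (exact permutation p = 0.875), which changed no call. Background was lowest in both Hoxb1b controls, both Meis2b controls and Meis2b atRA replicate 2 (0.199 to 0.286 fragments per base), so an absent call there is not an absent factor. Motif searches and nearest genes were not run.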
